A study of Homo sapiens with 18 samples.

Results

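The nuclear genes of the respiratory chain were followed through 12 peak lists from A549 cells, a human lung adenocarcinoma line. The genes were chosen by symbol: protein-coding genes on chromosomes 1 to 22 and X that encode subunits of NADH dehydrogenase (symbols starting NDUFA, NDUFB, NDUFC, NDUFS or NDUFV), of the cytochrome bc1 complex (UQCR, CYC1), of cytochrome c oxidase (COX4 to COX8), of ATP synthase (ATP5F1, ATP5M, ATP5P) or of succinate dehydrogenase (SDHA to SDHD). The rule took 96 of the 19974 protein-coding genes. They fell into 37 subunits of complex I, 8 assembly factors of complex I whose symbols share the stem NDUFAF, 4 subunits of complex II, 9 of complex III, 11 of complex IV and 17 of complex V, with 8 tissue-restricted paralogs or retrocopies and 2 readthrough genes. NDUFA4 and NDUFA4L2 are listed under the symbols COXFA4 and COXFA4L2 in the gene table and were therefore not taken by the rule.

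The assay was CUT&Tag, in which an antibody on chromatin guides a transposase that cuts and tags the DNA beside it. One antibody was against ARID1A, a subunit of the BAF chromatin remodelling complex, and the other was against YTHDF1, a protein known for binding N6-methyladenosine in RNA. Each antibody was used in YTHDF1-knockout cells (YTHDF1-KO), in cells treated with siRNA against ARID1A (siARID1A) and in wild-type cells (WT), with 2 lists per group. The labels do not say whether the knockout was 1 clone, how far ARID1A was reduced, or whether replicates were separate cultures, and the spread behind every p-value is that between these lists, which may be technical. The IgG samples were not analysed here, nor was a further condition of the design text, knockout joined with knockdown. A gene counted as held by a list when a peak of that list overlapped the gene or the 1 kb around it. The percentile of a gene is the rank of its strongest peak among all peaks of that list by total signal, the authors' value, with 100 the highest.

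Respiratory chain subunits are split between the nuclear and the mitochondrial genome. Part of the core of each proton-pumping complex is encoded in mitochondrial DNA, while the genes described here are transcribed in the nucleus and their products are imported. Many of these genes have CpG-rich promoters, and NRF1, the ETS factor GABP and YY1 are known as transcription factors that bind such promoters. Complex II is the exception, since all of its subunits are nuclear.

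Upstream sequence from RefSeq (GRCh38.p14) is printed for 6 genes to which the values below return: NDUFS7, the one member called lower with anti-ARID1A after ARID1A knockdown; NDUFAF4 and COX7C, held by every anti-ARID1A list at a low rank and by 1 and 0 anti-YTHDF1 lists; the ubiquitous and muscle forms of one complex IV subunit, COX6A1 and COX6A2; and COX6B2, the member with the highest anti-ARID1A rank. Each run is the 200 bases before an annotated start, 5′ to 3′ on the gene's strand. Capitals mark matches on either strand to the motifs named after them. The runs lie at chr19:1383707-1383906 (plus strand), chr6:96897892-96898091 (minus strand), chr5:86617741-86617940 (plus strand), chr12:120437913-120438112 (plus strand), chr16:31428361-31428560 (minus strand) and chr19:55354720-55354919 (minus strand).
NDUFS7: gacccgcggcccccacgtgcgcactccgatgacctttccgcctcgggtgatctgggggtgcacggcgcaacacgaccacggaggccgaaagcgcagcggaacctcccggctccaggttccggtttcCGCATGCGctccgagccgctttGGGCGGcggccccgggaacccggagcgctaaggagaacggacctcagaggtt
NDUFAF4: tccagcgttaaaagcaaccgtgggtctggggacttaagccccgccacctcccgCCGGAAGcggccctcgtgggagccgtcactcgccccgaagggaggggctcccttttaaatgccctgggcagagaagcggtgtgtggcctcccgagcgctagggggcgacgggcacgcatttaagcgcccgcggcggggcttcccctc
COX7C: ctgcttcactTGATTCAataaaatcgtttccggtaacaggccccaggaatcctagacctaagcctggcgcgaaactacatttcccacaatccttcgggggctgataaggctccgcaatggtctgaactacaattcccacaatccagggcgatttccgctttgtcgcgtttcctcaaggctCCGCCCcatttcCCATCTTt
COX6A1: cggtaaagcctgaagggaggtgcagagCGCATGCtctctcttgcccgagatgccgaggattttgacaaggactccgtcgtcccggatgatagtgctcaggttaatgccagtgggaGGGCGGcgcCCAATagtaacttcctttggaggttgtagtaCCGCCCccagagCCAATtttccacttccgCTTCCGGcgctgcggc
COX6A2: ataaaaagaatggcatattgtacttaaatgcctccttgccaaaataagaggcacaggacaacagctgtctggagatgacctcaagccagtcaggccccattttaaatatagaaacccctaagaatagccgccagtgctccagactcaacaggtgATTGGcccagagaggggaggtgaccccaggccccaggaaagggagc
COX6B2: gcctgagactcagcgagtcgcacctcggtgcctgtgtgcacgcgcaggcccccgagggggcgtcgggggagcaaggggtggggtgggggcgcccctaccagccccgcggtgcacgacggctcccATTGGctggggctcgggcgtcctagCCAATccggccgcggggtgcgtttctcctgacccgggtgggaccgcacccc

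NDUFS7 holds the NRF1 core and an SP box, and NDUFAF4 holds an ETS core. COX7C holds a YY1 match, an SP box and TGATTCA, a match to the loose AP-1 search string TGANTCA, where N is any base. COX6A1 holds the NRF1 core, the ETS core, SP boxes and CCAAT boxes, while its muscle paralog COX6A2 holds a single CCAAT box. COX6B2 holds CCAAT boxes. A match is a description of letters, and its absence says only that these letters are not in the printed bases. The longer windows used for the shares below hold further matches: the NRF1 core in NDUFAF4, the YY1 motif in NDUFS7, TATAAA in COX6A2 and an SP box in COX6B2.

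Over all members with a RefSeq promoter window (250 bases before to 50 after a start), 77 of 96, the NRF1 core GCATGCG was present in 20.8%, against 6.07% of all 15812 genes with such a window. The share was 10.1% for mitochondrial ribosomal protein genes, 7.14% for cytosolic ribosomal protein genes and 5.71% for proteasome subunit genes. The ETS core CCGGAAG was present in 29.9% of members and in 16.5% of all genes, and here mitochondrial ribosomal protein genes stood higher at 43.5%. The YY1 motif AAGATGG was present in 24.7% of members, 34.8% of mitochondrial ribosomal protein genes and 7.90% of all genes. The SP box GGGCGG stood at 62.3% of members and 64.2% of all genes, CCAAT at 37.7% and 42.1%, and TATAAA at 9.09% and 12.4%. The CRE TGACGTC stood at 9.09% and 5.43%, and the loose AP-1 search string TGANTCA at 5.19% and 8.04%. Both strands were searched, and a base could belong to more than 1 motif. The G+C content of the windows had a median of 61% in members and 62.7% in all genes. No test was made of these shares.

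**Figure D1:**
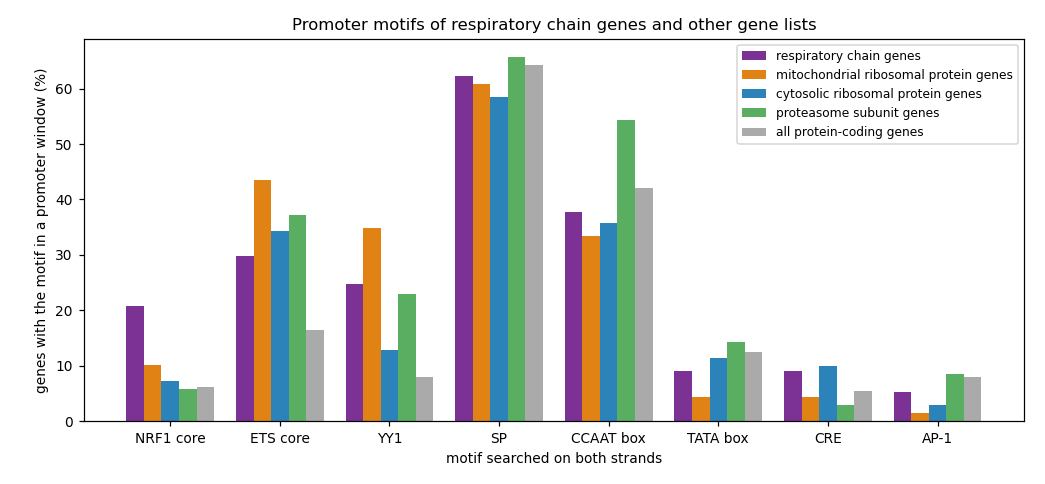
Share of genes with each of 8 motifs in a promoter window (percent, vertical axis) for respiratory chain genes and 4 other gene lists, with both strands searched. The NRF1 core stands at 20.8% in respiratory chain genes and 6.07% in all protein-coding genes, while the SP box stands at 62.3% and 64.2%.

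Respiratory chain genes were widely held by the anti-ARID1A lists. Anti-ARID1A lists held 89 and 90 of the 96 members in YTHDF1-KO cells, 82 and 82 in siARID1A cells, and 89 and 90 in WT cells. Anti-YTHDF1 lists held 48 and 49 members in YTHDF1-KO cells, 69 and 55 in siARID1A cells, and 60 and 49 in WT cells. Every anti-ARID1A list held more members than every anti-YTHDF1 list. The mean share was 90.6% ± 4.06 with anti-ARID1A and 57.3% ± 8.62 with anti-YTHDF1 (SD, n = 6 lists of 3 cell conditions each), beside 79.9% ± 3.12 and 62.2% ± 4.05 of all protein-coding genes. Among genes up to 20 kb long, a closer match to members whose median length is 10198 bases, the shares were 71.2% ± 3.36 and 55.1% ± 4.32. With anti-ARID1A the members' share lay above both backgrounds, and with anti-YTHDF1 it lay between them. These differences from other genes were not tested.

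The anti-ARID1A lists were longer, with 71271 to 106882 peaks against 40562 to 59632 in the anti-YTHDF1 lists, and list length moved with these counts. When every list was shortened to its 40562 strongest peaks, anti-ARID1A lists held 69 to 82 members (mean 73.7) and anti-YTHDF1 lists held 46 to 56 (mean 51.2), and the antibodies did not overlap. These were 76.7% ± 4.92 and 53.3% ± 4.24 of members, beside 66.4% ± 1.25 and 56.3% ± 1.29 of all genes, where anti-ARID1A lists also held more. Over the promoter windows alone, anti-ARID1A lists held 62 to 71 of the 77 members with a window and anti-YTHDF1 lists held 25 to 40. The corresponding shares were 87.4% ± 5.43 and 43.7% ± 8.40 in members, against 66.3% ± 5.13 and 35.5% ± 6.79 in all genes. Mitochondrial ribosomal protein genes had 88.6% ± 5.90 and 40.6% ± 9.53, proteasome subunit genes 88.1% ± 4.21 and 49.5% ± 18.1, and cytosolic ribosomal protein genes 92.4% ± 2.33 and 50.5% ± 13.8 (SD, n = 6).

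**Figure D2:**
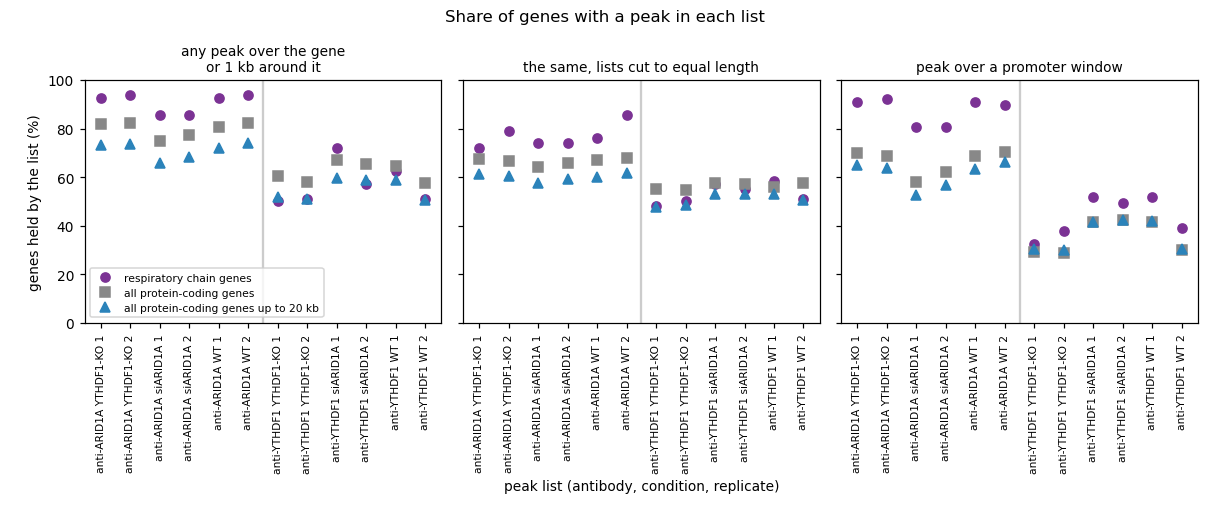
Percent of genes held by each of the 12 lists (horizontal axis: antibody, condition and replicate) with any peak over the gene or 1 kb around it, with lists shortened to the same number of peaks, and with a peak over a promoter window. Circles are respiratory chain genes, squares all protein-coding genes and triangles all genes up to 20 kb. Over promoter windows, anti-ARID1A lists held 80.5% to 92.2% of respiratory chain genes and anti-YTHDF1 lists 32.5% to 51.9%.

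All 12 lists held 30 members, 31.3% of the 96, against 35.0% of all genes. All 6 anti-ARID1A lists held 76 members, 79.2% against 68.3% of all genes, and all 6 anti-YTHDF1 lists held 30, against 35.8% of all genes. No member was missing from every list, against 8.28% of all genes. Members in more anti-ARID1A than anti-YTHDF1 lists numbered 60, 62.5% against 48.2% of all genes, and 1 member, COX6C, stood the other way, 1.04% against 5.41%. A two-sided exact test (Fisher) of presence by antibody, adjusted over all genes by the Benjamini-Hochberg method, called 0 members and 0 genes: its smallest p with 6 lists against 6 is 0.002165, which became 0.2402 after adjustment. At an unadjusted exact p under 0.05, 16 members were in more anti-ARID1A lists and 0 in more anti-YTHDF1 lists, beside 4.16% and 0.0300% of all genes.

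The counts below, complex by complex, stand beside 68.3% of all genes in all 6 anti-ARID1A lists and 35.8% in all 6 anti-YTHDF1 lists, and differences between complexes were not tested. Complex III, which passes electrons from ubiquinol to cytochrome c, had 9 of 9 genes in all 6 anti-ARID1A lists, and 4 of the 9 in all 6 anti-YTHDF1 lists. Its pairs of gene and anti-YTHDF1 list were held in 72.2%, beside 62.2% of such pairs over all genes. The 8 complex I assembly factors, which build the enzyme and are not part of it, were likewise in all 6 anti-ARID1A lists, and 3 of them were in all 6 anti-YTHDF1 lists. Complex V, the ATP synthase, had 15 of 17 genes in all 6 anti-ARID1A lists but 4 in all 6 anti-YTHDF1 lists. Complex I subunits had 28 of 37 and 12 of 37, and complex IV, which reduces oxygen, had 8 of 11 and 3 of 11. Complex II, which oxidises succinate, had 2 of 4 and 1 of 4. The restricted paralogs and retrocopies were held in 58.3% of pairs of gene and anti-ARID1A list and in 29.2% of pairs with anti-YTHDF1. Over all genes these shares of pairs were 79.9% and 62.2%.

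**Figure D3:**
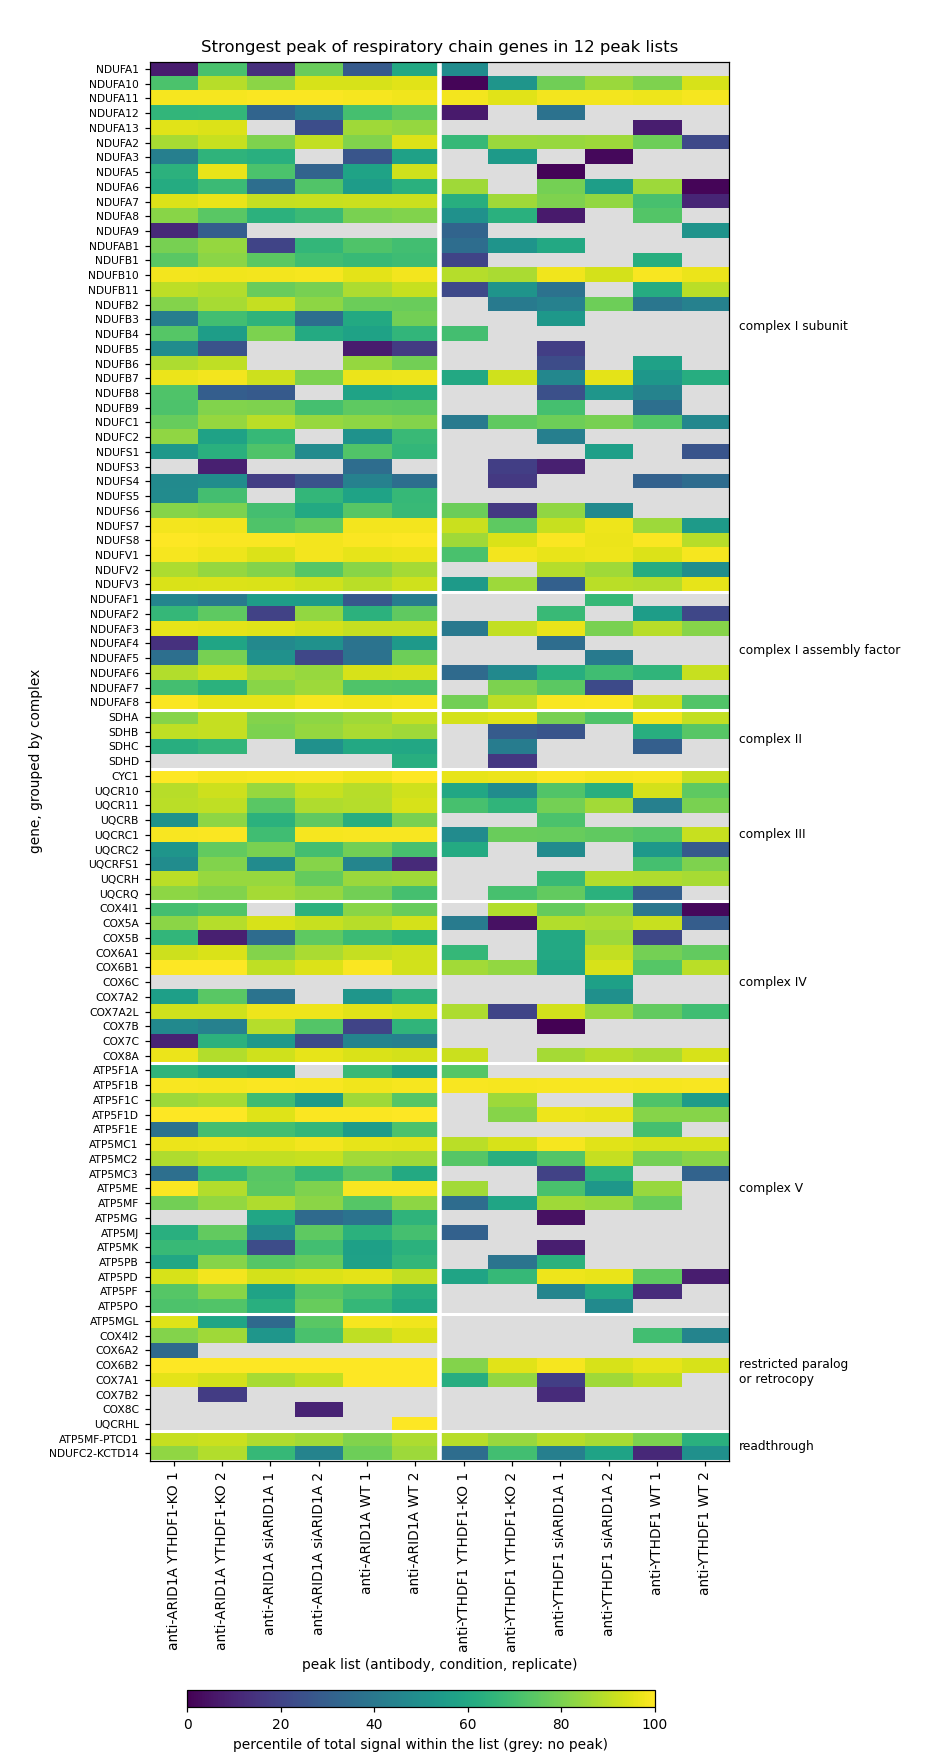
Percentile of total signal (colour, 0 to 100) of the strongest peak at respiratory chain genes (rows, grouped by complex) in the 12 lists (columns), with grey where the list has no peak. Grey cells are frequent in the anti-YTHDF1 columns, whose lists hold 48 to 69 of the 96 members, and rare in the anti-ARID1A columns, whose lists hold 82 to 90.

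The 30 genes in all 12 lists came from every complex. They included NDUFA2, NDUFA7, NDUFA10, NDUFA11, NDUFB7, NDUFB10, NDUFC1, NDUFS7, NDUFS8, NDUFV1 and NDUFV3 of complex I with the assembly factors NDUFAF3, NDUFAF6 and NDUFAF8; SDHA; CYC1, UQCRC1, UQCR10 and UQCR11; COX5A, COX6B1 and COX7A2L; ATP5F1B, ATP5MC1, ATP5MC2 and ATP5PD; COX6B2; and the readthroughs ATP5MF-PTCD1 and NDUFC2-KCTD14. A further 44 were in all 6 anti-ARID1A and in some anti-YTHDF1 lists. Of these, 8 were in 5 anti-YTHDF1 lists (ATP5F1D, ATP5MF, COX6A1, COX7A1, COX8A, NDUFA6, NDUFB2 and NDUFB11), 8 in 4 (ATP5ME, NDUFA8, NDUFS6, NDUFV2, SDHB, UQCRC2, UQCRH and UQCRQ), 8 in 3 (ATP5F1C, ATP5MC3, ATP5PF, COX5B, NDUFAB1, NDUFAF2, NDUFAF7 and NDUFS4) and 7 in 2 (ATP5PB, COX4I2, NDUFA12, NDUFB1, NDUFB9, NDUFS1 and UQCRFS1). Another 13 were in a single anti-YTHDF1 list: ATP5F1E, ATP5MJ, ATP5MK, ATP5PO, COX7B, NDUFA1, NDUFA5, NDUFAF1, NDUFAF4, NDUFAF5, NDUFB3, NDUFB4 and UQCRB.

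COX7C, a small subunit of complex IV, and ATP5MGL, a copy of the ATP synthase gene ATP5MG, were in all 6 anti-ARID1A and no anti-YTHDF1 list, a pattern of 0.891% of all genes. COX7C lay low in the anti-ARID1A lists, at percentiles of 10.0 and 64.3 in YTHDF1-KO, 54.0 and 22.3 in siARID1A, and 45 and 43.7 in WT. Its peak was at the printed promoter, where the highest point lay at a median of -78.3 bases from the start (negative is upstream). NDUFS5 was in 5 anti-ARID1A and no anti-YTHDF1 list, and COX4I1, the ubiquitous form of complex IV subunit 4, was in 5 of each.

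Several genes known to be active in most cell types were seldom held. SDHD, a membrane anchor of complex II, was in 1 list of each antibody: WT replicate 2 with anti-ARID1A at percentile 62.5, and YTHDF1-KO replicate 2 with anti-YTHDF1 at 16.1. NDUFS3 and NDUFA9, both complex I subunits, were in 2 lists of each antibody, at percentiles of 8.77 to 51.4. COX6C, a complex IV subunit, was in 1 anti-YTHDF1 list, siARID1A replicate 2, at percentile 57.0, and in no anti-ARID1A list. The absence of a peak is thus no sign that a gene is silent, and its presence is no sign of expression: among marker genes of other tissues, SPI1 and CD79A of blood cells were held by all 12 lists while ALB of liver was in none. Of 11 markers of epithelium and of A549, the anti-ARID1A lists held 10 to 11 and the anti-YTHDF1 lists 8 to 11.

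The other subunits of complex II differed widely. SDHA, the flavoprotein that binds succinate, was in all 12 lists, at percentiles with anti-ARID1A of 81.8 and 91.3 in YTHDF1-KO, 81.3 and 82.96 in siARID1A, and 85.6 and 91.4 in WT. With anti-YTHDF1 it lay at 93.4 and 95.2 in YTHDF1-KO, 79.3 and 72.6 in siARID1A, and 98 and 90.7 in WT, so that its siARID1A lists were the lowest of that antibody. SDHB, the iron-sulfur subunit, was in all 6 anti-ARID1A lists at 80.4 to 91.4 and in 4 anti-YTHDF1 lists at 26.0 to 74.1. SDHC, the other membrane anchor, was in 5 anti-ARID1A lists at 50.5 to 65.7 and in 2 anti-YTHDF1 lists at 30.2 and 42.0. CYC1, the cytochrome c1 of complex III, was in all 12 lists near the top, at 99.8 and 98.4 in YTHDF1-KO, 98.7 and 98.98 in siARID1A, and 97.4 and 99.7 in WT with anti-ARID1A, and at 96.1 and 97.1, 99.4 and 98.2, and 98.5 and 91.2 in the same order with anti-YTHDF1.

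Among members held by all 6 anti-ARID1A lists, the highest mean percentiles were those of COX6B2 (99.97), NDUFS8 (99.4), ATP5F1D (98.96), CYC1 (98.8) and ATP5F1B (98.8). The lowest were those of NDUFS4 (36.7 ± 12.65), COX7C (39.9 ± 20.2), NDUFA1 (43.0), NDUFAF4 (43.8) and NDUFAF1 (44.5). With anti-YTHDF1 the highest were ATP5F1B (98.9), NDUFA11 (97.8), CYC1 (96.8), ATP5MC1 (94.3) and NDUFS8 (94.2). Among the lowest of those in all 6 anti-YTHDF1 lists were NDUFC2-KCTD14 (44.8), COX5A (57.2), NDUFAF6 (61.9) and NDUFA10 (65.2). ATP5F1B, the catalytic beta subunit of ATP synthase, CYC1 and NDUFS8, an iron-sulfur subunit of complex I, were thus near the top with both antibodies. The rank is by total signal, and some of these peaks were broad. With anti-ARID1A the strongest peak reached 52162 bases at ATP5F1D, 33015 at NDUFS8, 27218 at CYC1 and 9210 at ATP5F1B. The part of peak length in these ranks was not tested. The percentiles of ATP5F1B lay between 98.01 and 99.4 with anti-ARID1A and between 98.6 and 99.2 with anti-YTHDF1. COX5A, a complex IV subunit, lay between 4.595 and 91.4 in the anti-YTHDF1 lists. The median percentile of the members a list held was 80.7 ± 2.22 with anti-ARID1A and 74.3 ± 5.89 with anti-YTHDF1, beside 84.4 ± 1.75 and 73.8 ± 2.54 for all genes held.

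The ubiquitous and restricted forms of the same subunit were compared as pairs. COX6A1 was in 6 anti-ARID1A and 5 anti-YTHDF1 lists, whereas COX6A2, its heart and muscle form, was in 1 list, anti-ARID1A of YTHDF1-KO replicate 1 at percentile 34.7. COX8A was in 6 and 5 lists and its paralog COX8C in 1 and 0. COX7B was in 6 and 1 and COX7B2 in 1 and 1, and UQCRH in 6 and 4 and its intronless copy UQCRHL in 1 and 0. The peak counted for UQCRHL was 24660 bases long and reached only the 1 kb beside the gene. The reverse was seen for COX7A1, the muscle form, in 6 and 5 lists against 5 and 1 for COX7A2. It was also seen for ATP5MGL, in 6 and 0 lists against 4 and 1 for ATP5MG. With anti-ARID1A the strongest peak was 2178 to 52707 bases long at COX7A1 and 1056 to 17229 at ATP5MGL. Which gene the longer peaks belong to was not tested. COX4I2, the form known from lung and from low oxygen, was in 6 and 2 lists, against 5 and 5 for COX4I1. COX6B2, the testis form, was in all 12 lists, as was COX6B1. COXFA4L2, known as a gene induced by low oxygen, was in all 12 lists at 98.3 to 99.7 with anti-ARID1A and 95.1 to 98.7 with anti-YTHDF1, and COXFA4 was in 6 anti-ARID1A lists and 1 anti-YTHDF1 list. An end of SHMT2 lies 32 bases from COXFA4L2, and a peak there cannot be assigned to either gene. Of the 8 restricted forms among the members, 4 were in all 6 anti-ARID1A lists and 4 were in no anti-YTHDF1 list.

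Peaks at members sat close to gene starts. In the 77 members with a known start, the highest point of the strongest peak was within 1 kb of a start in 75.6% ± 6.39 of held genes with anti-ARID1A and 64.2% ± 7.17 with anti-YTHDF1 (SD, n = 6 lists). In all genes the shares were 53.6% ± 3.25 and 40.9% ± 4.52, and in genes up to 20 kb 53.1% ± 3.44 and 46.8% ± 2.69. Mitochondrial ribosomal protein genes had 75.8% ± 5.48 and 57.4% ± 3.43, proteasome subunit genes 81.6% ± 7.29 and 61.6% ± 6.37, and cytosolic ribosomal protein genes 66.1% ± 8.47 and 57.5% ± 8.84. With anti-ARID1A the bin from 200 bases upstream to the start took 39.9% of pairs of member and list, against 23.4% of pairs over all genes. With anti-YTHDF1 it took 26.1%, against 11.9%. A neighbour's end lay within 1 kb of 48 of the 96 members, such as UQCRQ and GDF9, whose ends were 9 bases apart, or NDUFS6 and MRPL36, 27 bases apart, and a peak there cannot be given to one gene of the pair.

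**Figure D4:**
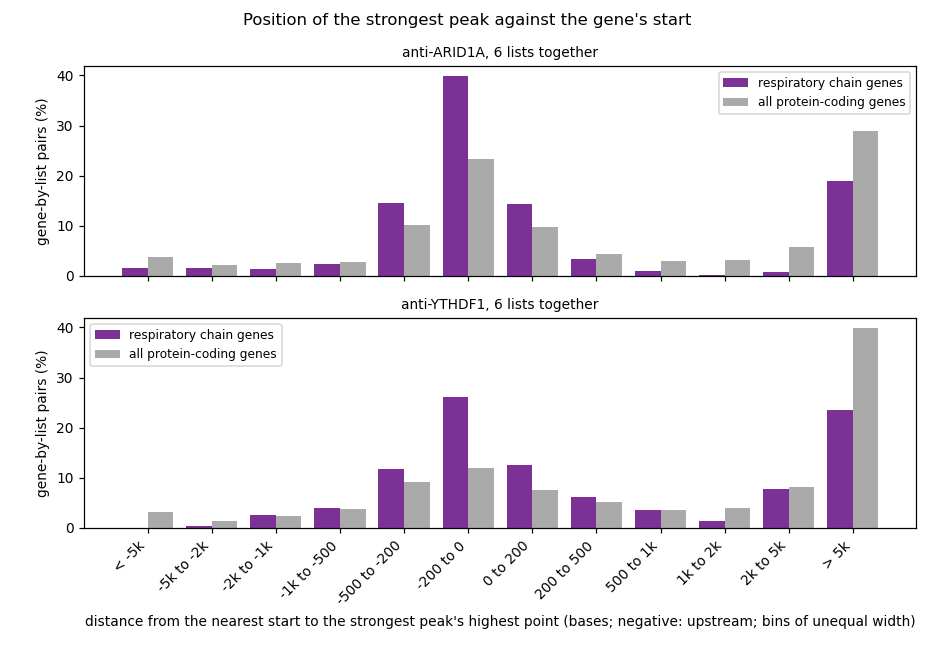
Distance in bases from the nearest annotated start to the highest point of the strongest peak (horizontal axis, bins of unequal width, negative upstream), as percent of pairs of gene and list, for respiratory chain genes and all protein-coding genes. The bin just upstream of the start holds 39.9% of member pairs with anti-ARID1A and 26.1% with anti-YTHDF1.

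Graded signal was compared in the 30 members, of 6999 genes, that all 12 lists held. These members passed because every list had a peak there, so nothing is drawn from their number. For each gene the log2 of the highest total signal among its peaks, minus the median gene of the list, was fitted with limma, and p-values were adjusted over the 6999 genes. Differences are log2 differences of this centred value, not of a level. Centring left the spread over genes unequal. The SD over the 6999 genes was 1.247 to 1.548 in anti-ARID1A lists and 0.952 to 1.195 in anti-YTHDF1 lists. A gene far from the median can differ between lists through this spread, and its part in the differences below was not tested. The median difference between antibodies was 0.01 in the members and -0.03 in all 6999 genes.

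Signal was higher with anti-ARID1A than with anti-YTHDF1 at 4 of the 30 members (16.3% of all genes) and lower at 2 (16.9% of all genes), and neither count was above its background share. COX6B2 had the largest difference. Its centred log2 signal with anti-ARID1A was 3.76 and 4.91 in YTHDF1-KO, 3.48 and 3.90 in siARID1A, and 4.09 and 4.68 in WT, and with anti-YTHDF1 it was -0.17 and 0.88 in YTHDF1-KO, 1.56 and 0.47 in siARID1A, and 0.86 and 0.73 in WT. The antibodies did not overlap, and the difference was 3.41 (SE 0.297, adjusted p = 3.724e-06). The anti-ARID1A peaks were broad domains of 11282 to 64313 bases around the gene at chr19:55349704-55354719, and the anti-YTHDF1 peaks there were 689 to 4832 bases long. In siARID1A replicate 1 and WT replicate 1 the domain lay beside the gene, in the 1 kb around it, and not over it. GARIN5B ends 189 bases from COX6B2, so the domain is not specific to either gene.

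UQCRC1, a core subunit of complex III, differed by 1.46 (SE 0.389, adjusted p = 0.0105). Its values with anti-ARID1A were 1.47 and 1.64 in YTHDF1-KO, -1.38 and 1.32 in siARID1A, and 1.46 and 1.47 in WT, and with anti-YTHDF1 they were -0.90 and -0.28, -0.64 and -0.71, and -0.77 and 0.53 in the same order. A single anti-ARID1A list, siARID1A replicate 1, lay below the anti-YTHDF1 values. In the other anti-ARID1A lists the strongest peak was a domain of 6599 to 14416 bases across the 3′ end of the gene toward COL7A1, and in that list it was an 802-base peak at the start of the gene.

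COX6B1, the ubiquitous paralog of COX6B2, differed by 1.302 (SE 0.421, adjusted p = 0.0286). It had values of 2.33 and 2.52 in YTHDF1-KO, -0.16 and 0.26 in siARID1A, and 2.27 and -0.43 in WT with anti-ARID1A, against 0.04 and -0.02, -1.16 and 0.52, and -0.77 and 0.37 with anti-YTHDF1. The 3 high lists had domains of 13359 to 17391 bases and the others had peaks of 1006 to 2230 bases at the start, so the WT lists disagreed with each other by more than the difference between antibodies. NDUFS8 differed by 1.17 (SE 0.380, adjusted p = 0.0292), with values of 2.69 and 2.04, 1.97 and 1.18, and 2.01 and 3.63 in the same order with anti-ARID1A, against 0.03 and 0.72, 2.08 and 1.05, and 2.25 and 0.37 with anti-YTHDF1. The antibodies overlapped. Both calls were fragile. COX6B1 was lost, at adjusted p = 0.0596 to 0.0931 in limma, without any of 7 lists: YTHDF1-KO replicate 2, siARID1A replicate 2 or WT replicate 1 of anti-ARID1A, or YTHDF1-KO replicate 1, YTHDF1-KO replicate 2, siARID1A replicate 1 or WT replicate 1 of anti-YTHDF1. NDUFS8 was lost, at adjusted p = 0.0730 to 0.0941, without any of 6: YTHDF1-KO replicate 1, siARID1A replicate 1 or WT replicate 2 of anti-ARID1A, or YTHDF1-KO replicate 1, siARID1A replicate 2 or WT replicate 2 of anti-YTHDF1.

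SDHA was lower with anti-ARID1A, by a log2 difference of -1.22 (SE 0.244, adjusted p = 0.00190). Its values were -1.45 and -0.64 in YTHDF1-KO, -0.81 and -0.91 in siARID1A, and -1.01 and -0.66 in WT with anti-ARID1A, and 0.55 and 0.83, -0.54 and -0.81, and 1.35 and 0.46 with anti-YTHDF1. The YTHDF1-KO and WT lists separated by antibody and the siARID1A lists did not. With anti-YTHDF1 the strongest peak lay in the last part of the gene or across its end, a median of 42307 bases from the start. With anti-ARID1A it was at the start in both siARID1A lists and near the 3′ end in the other 4. The readthrough ATP5MF-PTCD1, which spans ATP5MF and PTCD1, had -0.63 and -0.58 in YTHDF1-KO, -0.36 and -0.68 in siARID1A, and -1.36 and -1.06 in WT with anti-ARID1A, against 0.21 and 0.00, 0.02 and -0.14, and -0.50 and -0.56 with anti-YTHDF1. The antibodies overlapped, and the readthrough differed by -0.62 (SE 0.205, adjusted p = 0.0316). That call was lost, at adjusted p = 0.0510 to 0.0911 in limma, without any of 7 lists: every anti-ARID1A list but siARID1A replicate 1, or the first YTHDF1-KO or siARID1A list of anti-YTHDF1.

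**Figure D5:**
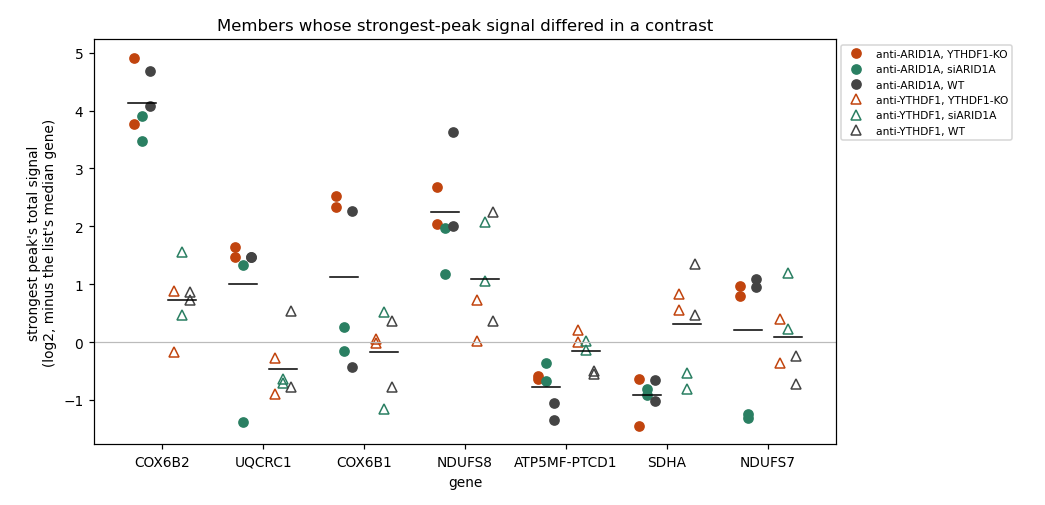
Log2 total signal of the strongest peak, minus the list's median gene (vertical axis), in each of the 12 lists for the 7 members that differed in a contrast. Filled circles are anti-ARID1A lists, open triangles anti-YTHDF1 lists, colours the cell condition and bars the mean over 6 lists. COX6B2 separates the antibodies by 3.41, and the 2 siARID1A circles of NDUFS7 lie at -1.24 and -1.31, below the other 4 at 0.80 to 1.10.

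Both comparisons with WT share the WT lists within an antibody, so their outcomes are not independent. With anti-ARID1A, 1 of the 30 members fell in siARID1A cells relative to WT cells, against 3.67% of all genes, and none rose, against 0.500% of all genes. The one was NDUFS7, an iron-sulfur subunit of complex I next to the quinone site. Its centred log2 signal was -1.24 and -1.31 in siARID1A and 1.10 and 0.95 in WT, a difference of -2.30 (SE 0.433, adjusted p = 0.00968). In YTHDF1-KO cells it was 0.96 and 0.80, beside the WT values. In percentiles the gene lay at 72.6 and 75.8 in siARID1A, against 98.2 and 98.2 in WT. The strongest peak was 1170 and 1725 bases long in siARID1A, against 12224 and 13687 bases in WT and 11921 and 8652 bases in YTHDF1-KO. All of these peaks lay over or past the 3′ end of NDUFS7 (chr19:1383907-1395584), toward GAMT, whose end is 1442 bases away, and none over the promoter printed above, which weaker peaks overlapped in 4 of the 6 anti-ARID1A lists. The domain cannot be assigned to either gene. The call was lost without siARID1A replicate 1, siARID1A replicate 2 or WT replicate 2 (adjusted p = 0.0774, 0.0682 and 0.0648 in limma), and with the highest signal of a peak the difference was -0.82 (adjusted p = 0.101). With anti-YTHDF1 the siARID1A values were 0.22 and 1.20, against -0.24 and -0.72 in WT. The test of the difference between antibodies gave -3.49 (SE 0.613, adjusted p = 0.0588), which missed the threshold of 0.05.

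The other 29 members did not pass in that contrast, and 4 of the 30 had an unadjusted limma p under 0.05, as did 1564 of the 6999 genes. The median difference of the members was 0.18, against -0.02 for all 6999 genes and -0.18 for genes up to 20 kb. The siARID1A lists of anti-ARID1A differed from the WT lists as a whole: they had 71271 and 79193 peaks against 92343 and 100729, covered 98.96 and 128 Mb against 228 and 266 Mb, and had 49.5% and 44.9% of the listed signal on the mitochondrial genome against 19.3% and 18.1%. The SD of the centred signal over the 6999 genes was 1.247 and 1.284 in siARID1A, against 1.461 and 1.548 in WT. The part of these shifts in the values of members was not tested.

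With anti-ARID1A both siARID1A lists lacked 2 members that both WT lists held, NDUFB5 and NDUFB6, against 2.52% of all genes, and gained none, against 0.360% of all genes. NDUFB6 lay at percentiles of 84.3 and 78.6 in WT and 87.7 and 90.3 in YTHDF1-KO, and so ranked high in the 4 lists that held it. The highest point of its strongest peak lay at a median of 21333 bases from the start, past the end of this 20159-base gene. An end of TOPORS lies 415 bases from NDUFB6, so that peak cannot be assigned to NDUFB6. NDUFB5 lay at 7.49 and 17.2 in WT. An end of MRPL47 lies 148 bases from NDUFB5, and MRPL47 was also called lost, so the loss cannot be assigned to either gene. NDUFB5 and NDUFB6 are accessory subunits of complex I. With 2 lists against 2 no test was made, since an exact two-sided permutation test cannot go below p = 0.33. With lists shortened to equal length the members held were 71 and 71 in siARID1A and 73 and 82 in WT, beside 64.3% and 65.7% of all genes in siARID1A and 66.96% and 67.7% in WT.

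With anti-ARID1A in YTHDF1-KO cells, limma called 0 of 30 members in either direction, against 0.100% of all genes higher and 0.0857% lower. NDUFA10 alone had an unadjusted limma p under 0.05 (592 of 6999 genes did), with a difference of -1.45 (SE 0.504, adjusted p = 0.370). NDUFA10 lies on chromosome 2, where the 406 genes tested had a median difference of -0.55, and centring on the chromosome left -0.80. In presence, NDUFA9 was gained (0.921% of all genes were) and ATP5MG was lost (0.731% of all genes were). NDUFA9 lay at percentiles of 11.4 and 30.0 in YTHDF1-KO. ATP5MG, a membrane subunit of ATP synthase, had lain at 38.2 and 65.0 in WT.

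The anti-YTHDF1 lists of YTHDF1-KO cells had peaks at 48 and 49 members (50% and 51.0%), beside 60.4% and 58.2% of all genes. In YTHDF1-KO cells anti-YTHDF1 lost 5 members that both WT lists held (2.58% of all genes were lost): UQCRH and UQCRFS1 of complex III, NDUFV2 and NDUFAF2 of complex I, and COX4I2. UQCRH had lain at percentiles of 88.1 and 87.0 in WT and UQCRFS1, the Rieske iron-sulfur protein, at 70.4 and 80.6. It gained NDUFS6 and NDUFAB1, the mitochondrial acyl carrier protein, against 1.95% of all genes. limma called 0 members and 0 of 6999 genes, with 3 members and 747 genes at an unadjusted p under 0.05. The 3 members were NDUFB10 at -1.37 (SE 0.431, adjusted p = 0.261), NDUFA10 at -1.23 (SE 0.504, adjusted p = 0.405) and UQCR10 at -0.91 (SE 0.388, adjusted p = 0.416). The median difference was -0.19 in members and 0.03 in all genes.

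In siARID1A cells anti-YTHDF1 gained NDUFAF7 and NDUFS6 (2.71% of all genes were gained) and lost NDUFS4, ATP5F1C, UQCRFS1 and COX4I2 (1.23% of all genes were lost). UQCRFS1, COX4I2 and NDUFS6 were so called in both comparisons, which share the WT lists. An end of MRPL36 lies 27 bases from NDUFS6, and MRPL36 was also called gained in both, so the gain cannot be assigned to either gene. ATP5F1C, the gamma subunit that turns in the ATP synthase, had lain at percentiles of 72.6 and 55.4 in WT. limma called 0 members and 0 genes here, with 6 members and 706 of 6999 genes at an unadjusted p under 0.05. The largest differences were those of NDUFAF8 at 2.12 (SE 0.535, adjusted p = 0.186) and ATP5PD at 2.06 (SE 0.471, adjusted p = 0.165), both on chromosome 17 past 40 Mb, where the 432 genes tested had a median of 0.60. After centring on that part of the chromosome they were 1.52 and 1.46. SDHA was at -1.59 (SE 0.423, adjusted p = 0.216), UQCR10 at -1.04 (SE 0.388, adjusted p = 0.377), NDUFV3 at -1.30 (SE 0.534, adjusted p = 0.418) and NDUFS7 at 1.19 (SE 0.433, adjusted p = 0.361).

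The difference between antibodies in the response to a condition was called for 0 of 30 members with limma in both conditions. At an unadjusted p under 0.05 there were 1 member and 492 genes for YTHDF1-KO, and 6 members and 957 genes for siARID1A, where 0.0143% of all genes were called higher and 0.0572% lower.

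Genes that serve the respiratory chain without being part of it were taken from lists of 42 assembly factors and 21 regulators of respiratory gene expression. Anti-ARID1A lists held 37 to 40 of the assembly factors and anti-YTHDF1 lists 20 to 33. The regulators, which include NRF1, GABPA, TFAM and the mitochondrial RNA polymerase POLRMT, were held at 19 to 21 and 15 to 18. In the same order of antibodies, the mean shares were 92.9% and 62.7% of assembly factors and 95.2% and 78.6% of regulators. Those of all genes were 79.9% and 62.2%, and the differences were not tested. Between antibodies, limma called 1 of 11 tested assembly factors higher with anti-ARID1A (UQCC1 at 0.92) and 1 lower (ACAD9 at -1.77), and 1 of 9 regulators higher (POLRMT at 0.88) and 1 lower (MTERF4 at -0.88), against 16.3% and 16.9% of all genes. In siARID1A cells relative to WT cells, SDHAF4 was gained by anti-ARID1A, COA5 and TMEM126A were gained by anti-YTHDF1, and SSBP1, which coats single-stranded mitochondrial DNA, was lost by anti-YTHDF1. Of all genes, 0.360% were gained by anti-ARID1A, and 2.71% were gained and 1.23% lost by anti-YTHDF1. In YTHDF1-KO cells anti-YTHDF1 gained COX10, which makes haem for complex IV, and lost SURF1, TMEM126B, PET100 and TFAM, the packaging protein of mitochondrial DNA, beside 1.95% of all genes gained and 2.58% lost. The genes that were knocked out or down were themselves held: YTHDF1 by all 12 lists and ARID1A by 11, without the anti-YTHDF1 list of WT replicate 2, which says nothing of the amount of either protein.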

How the data were processed

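CUT&Tag peak lists of 12 samples were used, 1 list per sample and 2 per group, grouped by the titles. The submitters' processing notes name SEACR 1.3 and, beside it, Bowtie2 2.4.2, fastp 0.23.2, bedtools 2.30.0, deepTools 3.5.2 and SAMtools 1.9, and the builds GRCh38 and hg38. No source used here gives settings or says how IgG entered the calling. The deposited lists give each peak's total signal and highest signal, a coverage computed by the authors on a scale that no source used here states. Signal was therefore ranked within a list (percentile) or centred on the list's median gene. Sequencing depth is unknown.

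Genes and promoters came from RefSeq (GRCh38.p14). The gene table has no strand, so starts were known only for genes in the promoter table. A gene was held if a peak overlapped it or 1 kb around it by 1 bp or more. The strongest peak is that of highest total signal.

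limma 3.58.1 (R 4.3.3) was fitted to 6999 genes in all 12 lists with 6 groups and 1 spread. Benjamini-Hochberg adjustment ran over all genes, with a threshold of 0.05. In simulated data of the antibody comparison on 6999 genes, 41% of shifts of 1 log2 and 99% of shifts of 3 were recovered, and in that of siARID1A with anti-ARID1A 1% and 85%. Presence used Fisher's exact test with scipy 1.17.1 under Python 3.11.15. Members, lists and tests were chosen with earlier results of these data known. Genes named are members called in a contrast or presence pattern, the 5 highest and 5 lowest percentiles per antibody, paralog pairs, complex II with CYC1, and members by pattern of lists. Up to 5 pathway genes per contrast were also named. Members named at an unadjusted p only, markers and COXFA4 with COXFA4L2 were chosen after their values were seen. Some genes counted in the totals are not reported here by name. The percentile, the other members' patterns and the motifs are descriptions with no test. Alternatives were other flanks, overlaps, list lengths, signal columns, scalings and left-out lists.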

Additional observations from a re-analysis of the deposited data

Results flagged for a closer look

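In each group of 6 lists of an antibody, the highest or lowest value was compared with its neighbour by Dixon's test for the number of members held and for the percentiles of named members in all 6 lists. Over 48 such groups 5 had a list that stood apart. For independent values of a single normal population, chance gives such a list in about 1 group in 20. The groups here mix the cell conditions and share the same lists, so the 5 cannot be set against that rate. UQCRC1 lay at percentile 69.25 in siARID1A replicate 1 with anti-ARID1A, against 98.56 in the nearest of the other lists, the same list that stood below the others in its graded signal. ATP5F1D, the delta subunit of ATP synthase, lay at 95.31 in that list, against 99.25 in the nearest. With anti-YTHDF1, ATP5MF-PTCD1 lay at 63.65 in WT replicate 2, against 80.35 in the nearest, COX6B2 at 81.48 in YTHDF1-KO replicate 1, against 93.77, and NDUFA11, a complex I subunit, at 95.42 in YTHDF1-KO replicate 2, against 97.62.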

How the results depend on the processing

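Members held per list and the presence comparisons kept their size except as follows. Over promoter windows, an alternative chosen after seeing the data, anti-YTHDF1 lists held a mean of 33.67 members against 55 overall. With lists of equal length, 4 members had an unadjusted Fisher p under 0.05 against 16. The members that changed presence in YTHDF1-KO with anti-ARID1A numbered 2 in the report, 1 with no flank and 0 with peaks above each list's median or lists of equal length. For siARID1A with anti-ARID1A they numbered 2, and 1 with no flank or a 3 kb flank, 4 with gene ends only, 6 with peaks above the median and 7 with equal length. For YTHDF1-KO with anti-YTHDF1 they numbered 7, and 4 with peaks above the median. Leaving out 1 list gave 86.4 to 88 members held for anti-ARID1A and 52.2 to 56.4 for anti-YTHDF1, 0 adjusted and 16 to 21 unadjusted Fisher calls, and 2 to 4 members that changed presence in YTHDF1-KO and 3 to 8 in siARID1A with anti-ARID1A, against 12 to 18 in YTHDF1-KO and 11 to 20 in siARID1A with anti-YTHDF1. With 1 list left in a group such a change needs 1 list fewer.

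Signal called 6 members between antibodies, 12 with the highest signal, 16 of 63 with genes in 8 or more lists, 2 of 19 with gene ends only and 0 of 10 with promoter window peaks (chosen after seeing the data), and 4 to 6 without 1 list. NDUFS7 was called in 5 and missed in 6 of the 11 alternatives that tested it in siARID1A with anti-ARID1A. The members called there numbered 0 with the sum over peaks, the rank score or promoter window peaks, and 0 to 1 without 1 list; the other condition contrasts gave 0 without 1 list. With genes in 8 or more lists 3 members were called there, and 1 in YTHDF1-KO with anti-ARID1A. The sum over peaks called 1 member in YTHDF1-KO with anti-YTHDF1 and 1 for the difference between antibodies in siARID1A. The cause of these changes was not tested. COX6B2 and SDHA were called in every alternative that tested them, UQCRC1 in 18 of 19, NDUFS8 in 10 of 20, COX6B1 in 9 of 20 and ATP5MF-PTCD1 in 8 of 18, and none changed sign. Peaks within 500 bp of a start were 56.11% of anti-YTHDF1 members against 64.16% within 1 kb; left-out lists gave 73.4% to 76.78% for anti-ARID1A and 62.7% to 66.75% for anti-YTHDF1. Lists of the same replicate number did not pair (15 correlations of deviations between -0.061 and 0.041), and the fit with the replicate block called 6 members between antibodies and 1 in siARID1A with anti-ARID1A, as without it.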

Other observations

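Within the 77 members with a promoter window, those with the NRF1 core (16) had a peak over the window in a mean of 5.31 anti-ARID1A and 2.44 anti-YTHDF1 lists, and those without (61) in 5.23 and 2.67. Members with the YY1 motif (19) had 5.21 and 2.11, and those without (58) had 5.26 and 2.79. Members with a CCAAT box (29) had 5.55 and 3.62, and those without (48) had 5.06 and 2.02. Members with an SP box (48) had 5.54 and 2.88, and those without (29) had 4.76 and 2.21. Members with the ETS core (23) had 5.35 and 2.91, and those without (54) had 5.2 and 2.5. These splits were chosen after the values were seen and were not tested. They were not made over all genes, so they are not traits shown to be particular to members. No member with the NRF1 core had a promoter peak in all 6 anti-YTHDF1 lists, against 10 of the 61 without it. COX6A1, ATP5MC2 and NDUFA6, which have the core, had such a peak in 5. This count was picked after the values were seen and was not tested either. The 23 members longer than 20 kb were in 5.35 and 3.30 lists and the other 73 in 5.47 and 3.48, and the 48 members with another gene's end within 1 kb were in 5.42 and 3.54 lists and the other 48 in 5.46 and 3.33.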
